A study of Mus musculus with 24 samples.

Results

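A set of 9 microglial genes, of 25135 genes listed, was followed through sorted nuclei of the Emx1 lineage, to which microglia do not belong. They were taken by name from the expression tables of both ages. The set comprised the receptors Csf1r, Cx3cr1, P2ry12 and Trem2, the surface protein Tmem119, the complement genes C1qa, C1qb and C1qc, and the cytoplasmic protein gene Aif1. Cortices came from wild-type littermates (Kdm6b wt/wt, WT) and from conditional knockouts (Emx1-Cre; Kdm6b f/f, Kdm6b-cKO) at P1 and P30, that is 1 and 30 days after birth. All mice had a C57BL/6 background and a SUN1-GFP reporter, which tags the nuclear envelope of cells that have expressed Cre. WT nuclei were sorted on the same tag. GFP-positive nuclei were collected by fluorescence-activated nuclei sorting, and 6 libraries per genotype and age, 24 in all, were analysed. Because Emx1-Cre acts in dorsal telencephalic progenitors, the deletion and the sort both covered their progeny, namely cortical glutamatergic neurons, astrocytes and a part of the oligodendrocytes. Microglial cells were not a target of either. No label ties a library to an animal, so the p-values measure the spread between these libraries.

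Microglia are the resident macrophages of the brain. They arise from yolk sac progenitors and settle in the brain before birth, so a Cre driver of the cortical neuroepithelium does not mark them. They depend on CSF1R signalling for survival, sense neurons through the fractalkine receptor CX3CR1 and the ADP receptor P2RY12, and are the main source of C1q in the brain. The 3 C1q chains assemble into the recognition molecule of the classical complement pathway. The adult homeostatic state is marked by P2RY12 and TMEM119, whose expression rises as microglia mature after birth. In bulk nuclei, fewer microglial nuclei and less of a transcript in each of them cannot be told apart.

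All 9 genes were read in every WT library at P1. Values are FPKM, which scale the fragments of a gene by transcript length and by library size. Summed over the 9 genes, P1 libraries held 67.8 to 151 FPKM in WT, against 39.9 to 148 FPKM in Kdm6b-cKO. At P30 the sums were 8.15 to 37.1 FPKM in WT, against 13.3 to 39.9 FPKM in Kdm6b-cKO. The tables of the 2 ages were normalized separately. On these separate scales group medians were lower at P30 than at P1 for all genes in both genotypes but Aif1 in Kdm6b-cKO. That one was 9.37 FPKM at P1 and 11.4 FPKM at P30. Genes that every cell uses also had lower medians over 12 libraries at P30. Actb had 2120 FPKM at P1 and 178 FPKM at P30, Eef1a1 1026 and 35.0, Gapdh 23.0 and 2.98, and Polr2a 5.04 and 4.77. A fall with age particular to the microglial genes is therefore not shown. For scale, 16 genes of glutamatergic neurons, which the sort was meant to hold, summed to between 735 and 1263 FPKM at P1 and between 478 and 1165 FPKM at P30. Genes of GABAergic interneurons, which are also outside the Emx1 lineage, were not lower at P1. Their sum over 16 genes was 752 to 1520 FPKM in WT, against 962 to 2870 FPKM in Kdm6b-cKO.

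**Figure D1:**
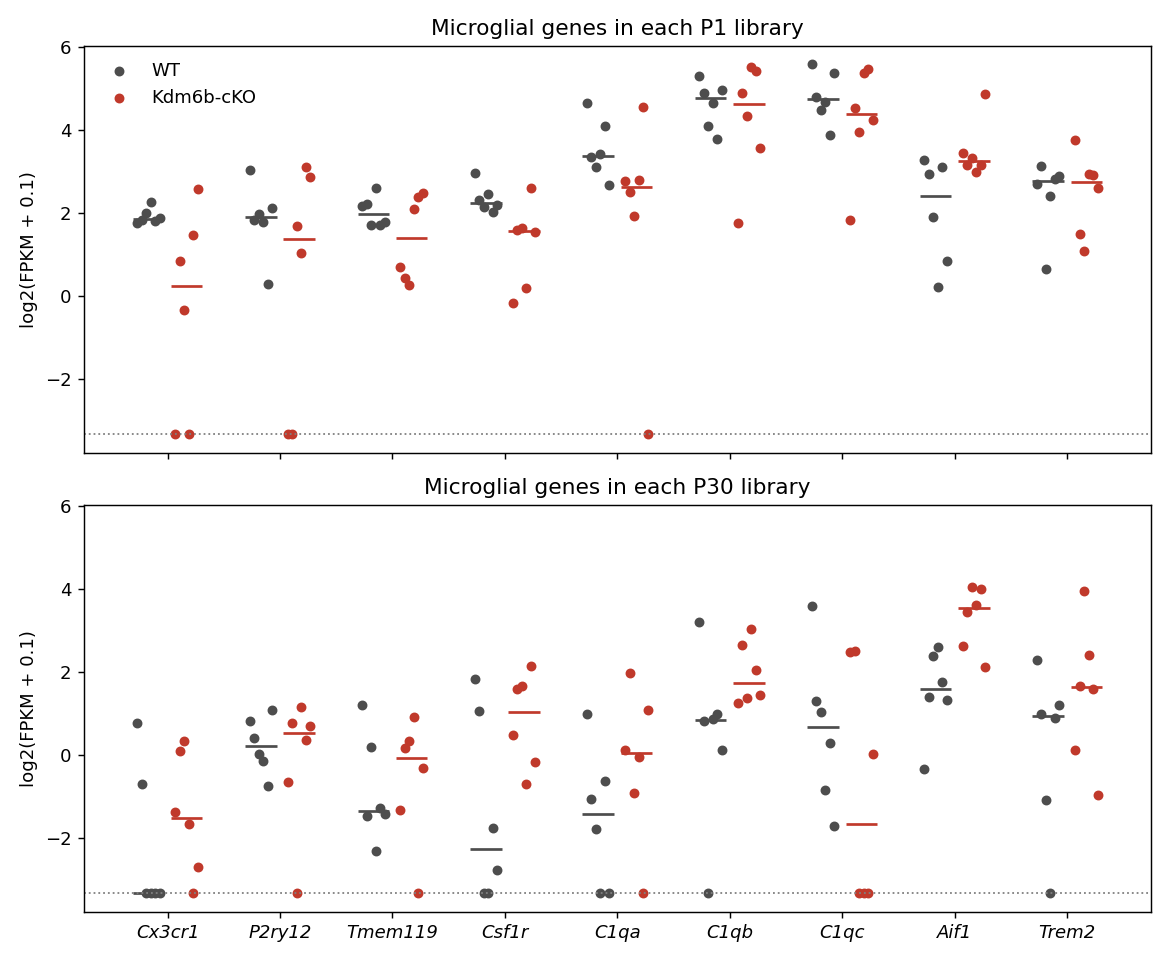
Level of each microglial gene in each library, as log2(FPKM + 0.1), at P1 (top) and P30 (bottom). Points are single libraries in order of library number 0 to 5 within a group, bars are group medians over 6 libraries, and the dotted line is a value listed at 0. At P1 every WT library lies above the dotted line for all 9 genes, and at P30 only Aif1 has no library on it.

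No microglial gene was called at either age. Calls required more than 2-fold change and an adjusted p below 0.05 (limma on log2(FPKM + 0.1), Benjamini-Hochberg). The fit took genes averaging 1 FPKM or more across an age's 12 libraries. At P1 all 9 passed that filter and 0 were called, against 0% of the 16250 genes tested. An unadjusted p under 0.05 was reached by 3 of the 9 (Cx3cr1 and Csf1r lower, Aif1 higher in Kdm6b-cKO), against 14.5% of all genes. Leaving out Kdm6b-cKO library 0 or 3 left only Aif1 there, and leaving out the shallow Kdm6b-cKO libraries 0 and 5 together left only Cx3cr1. Without any 1 of WT libraries 0, 1, 2, 3 and 5 there were 2 such genes, and without Kdm6b-cKO library 4 there were 4. Library weights left 1 and quantile normalization 2. At P30 only 6 passed the filter, with Cx3cr1, Tmem119 and C1qa below it, and 0 were called, against 0.278% of 13289 genes. An unadjusted p under 0.05 was reached by 2 of these 6 (Csf1r and Aif1, both higher), against 12.7% of all genes. Only Aif1 stayed there without any 1 of WT libraries 2 to 5 or Kdm6b-cKO libraries 1 and 2, Csf1r gave way to C1qa without Kdm6b-cKO library 4, and C1qb joined the pair without WT library 0. The median log2 fold change of all genes tested was -0.25 at P1 and -0.05 at P30. That of the microglial genes tested was -0.63 over 9 genes at P1 and 1.41 over 6 at P30. Of these 6, Csf1r passed the filter only through Kdm6b-cKO (mean 2.15 FPKM, against 0.947 FPKM in WT). With no filter the P30 median over all 9 was 1.30, with 7 higher and 2 lower. Quantile normalization moved the P1 medians to -0.12 for all genes and -0.54 for the microglial ones.

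In no case did the groups separate fully: for all 9 genes at both ages the WT and Kdm6b-cKO ranges overlapped. Ranges did not overlap for 1.29% of all genes tested at P1 and for 1.94% at P30. The genotype effect at P30 less that at P1 was tested over the 24 libraries for the 6 genes that passed the filter at both ages. None was called, against 0.00791% of 12644 genes, and 1 (Csf1r) had an unadjusted p under 0.05, against 13.2% of all genes.

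**Figure D2:**
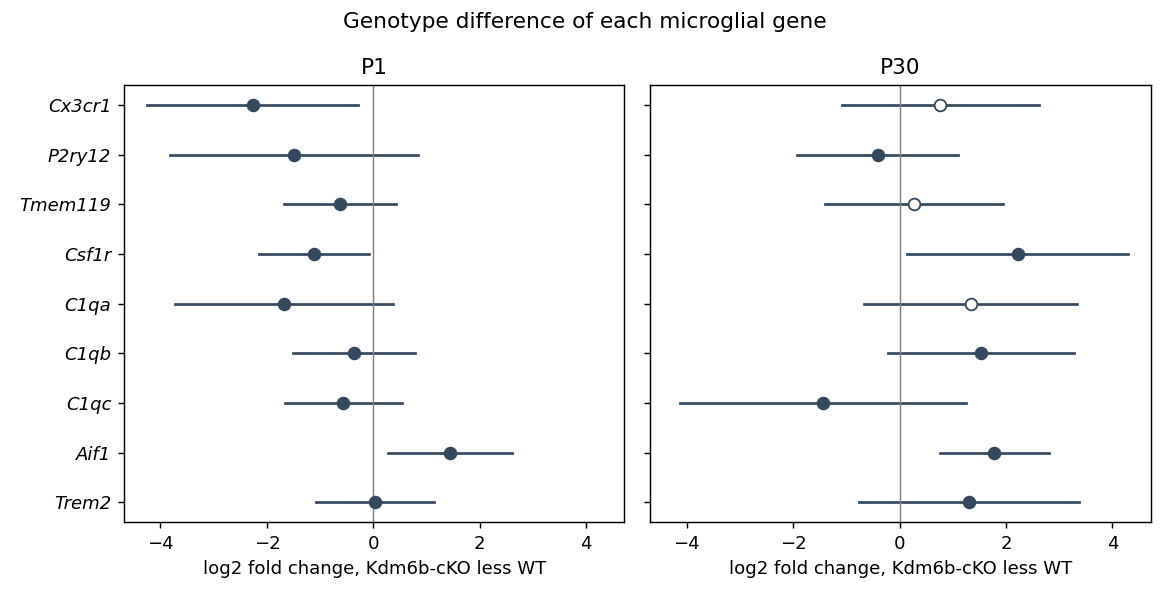
Log2 fold change of each microglial gene, Kdm6b-cKO less WT, at P1 (left) and P30 (right), with 95% confidence intervals from limma on log2(FPKM + 0.1), 6 libraries a group. Open circles are genes under the filter at P30, from the fit with no filter. At P1 the intervals of Cx3cr1, Csf1r and Aif1 leave out 0, and at P30 those of Csf1r and Aif1 do, none of them with an adjusted p under 0.05.

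Some values were listed at exactly 0, mostly at P30. At P1 the 54 WT values held no 0 and the 54 Kdm6b-cKO values held 5 (9.26%). More than 100 olfactory receptor genes were also above 0 in WT libraries 2 to 5, but in Kdm6b-cKO only in library 5. The share of zeros over all genes is not reported here, so these shares are not a result about the set. At P30 there were 10 zeros in WT (18.5%) and 7 in Kdm6b-cKO (13.0%), so that 17 of 108 values (15.7%) were listed at 0, against 5 of 108 (4.63%) at P1. Cx3cr1 accounted for the most at P30, with 5 of 12 libraries, followed by C1qa and C1qc with 3 each. Aif1 was the only gene of the set above 0 in all 24 libraries. An entry of 0 need not mean that no transcript was there: at P30 Ppia, which every cell uses, was listed at 0 in 10 of 12 libraries and Pgk1 in 1. Both were exceptions. Actb, Gapdh, Tbp and the other such genes looked up were above 0 in every P30 library, and at P1 all were, Ppia and Pgk1 included. Whether the microglial zeros are of this kind was not tested.

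How many reads stood behind these values could be read for 6 of the 9 genes, because 1 read more or less gives a fixed step in FPKM. For P2ry12, Aif1 and Trem2 the steps were not readable. The steps also gave an effective depth per library, taking fragments as 200 bases long. At P1 it was 816000 to 3887000 reads in WT, against 191000 to 2836000 in Kdm6b-cKO. At P30 it was 5124000 to 8320000 in WT, against 1938000 to 8058000 in Kdm6b-cKO. The shallowest P1 libraries were Kdm6b-cKO 5 (191000 reads) and Kdm6b-cKO 0 (341000 reads). Of the 5 zeros at P1, 3 were in these libraries.

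Csf1r encodes the receptor for CSF1 and IL-34 on which microglial survival depends. At P1 it held 7.74, 4.85, 4.33, 5.36, 3.96 and 4.45 FPKM in WT libraries 0 to 5. In Kdm6b-cKO libraries 0 to 5 it held 0.791, 2.93, 2.99, 1.05, 5.94 and 2.82 FPKM. All but 1 of the Kdm6b-cKO libraries, number 4, lay under the lowest WT value. The log2 fold change was -1.12 with a standard error (SE) of 0.49, an exact two-sided permutation p of 0.0195 over 924 splits, and an adjusted p of 0.312 in limma. These levels rested on 234 reads in WT and 114 in Kdm6b-cKO.

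At P30 Csf1r went the other way. Its values were 3.46, 1.98, 0, 0, 0.196 and 0.0478 FPKM in WT and 1.31, 2.90, 3.06, 0.520, 4.34 and 0.795 FPKM in Kdm6b-cKO. WT libraries 0 and 1 stood far above the other 4 and carried 100 and 44 of the 151 WT reads, while no Kdm6b-cKO library was at 0. The log2 fold change was 2.22 (SE 0.96, exact permutation p = 0.0606, adjusted p = 0.360 in limma). It was 0.83 with a pseudocount of 1 and 3.56 with one of 0.01, and the log2 ratio of mean FPKM was 1.18. Without WT libraries 0 and 1 it was 3.63, with an adjusted p of 0.0813. Among libraries above 1000 FPKM of the ribosomal 45S precursor Rn45s (5 WT, 3 Kdm6b-cKO) the log2 difference was 3.06 (exact permutation p = 0.0714), and among the others, WT library 0 and 3 Kdm6b-cKO libraries, it was -1.19. The difference of the genotype effect between ages was 3.33 on the log2 scale (SE 1.09), with an unadjusted p of 0.00542 and an adjusted p of 0.210 in limma. Exons of Csf1r (mm9, chromosome 18, 61265226 to 61291803, plus strand) overlap exons of Hmgxb3 on the minus strand, and no source used here states whether reads were counted by strand. Hmgxb3 itself had log2 fold changes of -0.26 at P1 and -0.03 at P30, with adjusted p-values of 0.764 and 0.944 in limma.

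Cx3cr1, the fractalkine receptor, had the narrowest WT range of the set at P1. Its WT values were 3.27, 3.44, 3.88, 4.69, 3.41 and 3.58 FPKM, from 10 to 48 reads a library. The Kdm6b-cKO libraries held 0, 1.68, 0.698, 0, 2.66 and 5.84 FPKM, so that 5 of them lay under every WT library and the shallowest, number 5, above every one on 4 reads. The log2 fold change was -2.27 (SE 0.93, exact permutation p = 0.0390, adjusted p = 0.290 in limma), from 155 reads in WT and 42 in Kdm6b-cKO. Of the Kdm6b-cKO libraries listed at 0, number 3 was deep and number 0 shallow: 3 reads would have amounted to 0.295 FPKM in the former and 2.45 FPKM in the latter. Among the P1 libraries with more than 1000000 effective reads (5 WT, 3 Kdm6b-cKO) the log2 difference was -2.67 (exact permutation p = 0.0179, the smallest that this many libraries allow). For the other 8 genes these libraries gave -0.94 for Csf1r (exact permutation p = 0.107), 1.32 for Aif1 (exact permutation p = 0.179) and values between -0.50 and 0.31 for the rest, with P2ry12 at -0.19, C1qa at -0.35 and C1qb at 0.31. This depth cut was chosen after the data were seen, and it drops Kdm6b-cKO library 5, the only one above WT. Of the libraries kept, WT 2, 3 and 5 had more than 100 olfactory receptor genes above 0, and no Kdm6b-cKO library did. The size for Cx3cr1 over all 12 libraries depended on how its zeros were treated, being -1.09 with a pseudocount of 1, -3.40 with one of 0.01, and -1.03 as the log2 ratio of mean FPKM (exact permutation p = 0.0693).

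At P30 Cx3cr1 was below the filter. It held 1.61, 0.513, 0, 0, 0 and 0 FPKM in WT and 0.286, 0.976, 1.16, 0.215, 0 and 0.0548 FPKM in Kdm6b-cKO. Of its 56 WT reads, 45 came from library 0 and 11 from library 1. In the other 4 WT libraries 3 reads would have amounted to between 0.101 and 0.164 FPKM, which is the level that a count of 0 leaves possible there. The log2 difference was 0.77 (exact permutation p = 0.448), and limma with no filter gave an SE of 0.86 and an adjusted p of 0.754.

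P2ry12 encodes the ADP receptor that steers microglial processes. At P1 it spanned 1.13 to 8.01 FPKM in WT (median 3.62), against 0 to 8.50 FPKM in Kdm6b-cKO (median 2.54), where libraries 0 and 1 were listed at 0. Its log2 fold change was -1.49 (SE 1.09, exact permutation p = 0.325, adjusted p = 0.543 in limma). It rested on those zeros: the log2 ratio of mean FPKM was -0.20, and the value was -0.55 with a pseudocount of 1 and -2.57 with one of 0.01. At P30 it spanned 0.50 to 2.04 FPKM in WT (median 1.08), against 0 to 2.13 FPKM in Kdm6b-cKO (median 1.36), with a log2 fold change of -0.41 (SE 0.70, exact permutation p = 0.714, adjusted p = 0.856 in limma). P2ry12 (mm9, chromosome 3, 59020193 to 59066753, minus strand) lies within the span of Med12l on the opposite strand, with no exon in common. Across the 12 libraries of an age P2ry12 and Med12l had a Spearman rho of -0.29 at P1 and -0.30 at P30.

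Tmem119 encodes a membrane protein used as a marker of adult microglia. At P1 it spanned 3.15 to 5.95 FPKM in WT (median 3.87), against 1.11 to 5.43 FPKM in Kdm6b-cKO (median 2.86). Kdm6b-cKO libraries 0, 1 and 2 lay under all WT libraries, and libraries 3, 4 and 5 within the WT range. This gave a log2 fold change of -0.63 (SE 0.49, exact permutation p = 0.173, adjusted p = 0.564 in limma). At P30 Tmem119 held 2.19 FPKM in WT library 0 and between 0.102 and 1.04 FPKM in the other 5, against 0 to 1.79 FPKM in Kdm6b-cKO. The log2 difference was 0.27 (exact permutation p = 0.753), on 57 reads in WT and 42 in Kdm6b-cKO.

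Trem2, a receptor for lipids and lipoproteins on microglia, had nearly equal medians in both genotypes at P1. It spanned 1.48 to 8.68 FPKM in WT (median 6.68), against 2.03 to 13.3 FPKM in Kdm6b-cKO (median 6.67), with a log2 fold change of 0.03 and a 95% interval from -1.08 to 1.14 (adjusted p = 0.983 in limma). At P30 the range was 0 to 4.74 FPKM in WT (median 1.82) and 0.415 to 15.3 FPKM in Kdm6b-cKO (median 2.99). The highest of these, library 2, stood well above the next at 5.19 FPKM. Across the groups the log2 fold change was 1.30 (SE 0.96, exact permutation p = 0.264, adjusted p = 0.617 in limma).

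The C1q genes had the highest medians of the set in WT at P1, and in Kdm6b-cKO C1qb and C1qc did. They lie side by side on the minus strand of chromosome 4 (mm9), with C1qb from 136436044 to 136442102, C1qc from 136445719 to 136448980 and C1qa from 136451832 to 136454718. In WT at P1 C1qb had a median of 27.0 FPKM (13.7 to 39.3), C1qc one of 26.5 FPKM (14.5 to 47.4) and C1qa one of 10.3 FPKM (6.31 to 25.0). The first pair had nearly equal levels, and the ranges of all 3 overlapped. In Kdm6b-cKO the medians were 24.8 FPKM (3.28 to 45.3) for C1qb, 20.7 FPKM (3.47 to 43.9) for C1qc and 6.12 FPKM (0 to 23.1) for C1qa. Log2 fold changes were -0.36 (SE 0.54) for C1qb, -0.57 (SE 0.52) for C1qc and -1.68 (SE 0.96) for C1qa, with adjusted p-values of 0.766, 0.620 and 0.437 in limma. The lowest values of C1qb and C1qc were those of the shallow Kdm6b-cKO library 0, where each was 1 read, and the 0 of C1qa was in library 5, where 3 reads would have amounted to 18.0 FPKM.

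C1qb and C1qc followed each other more closely across the P1 libraries than any other pair of the set (Spearman rho 0.92 over 12 libraries, the highest of 36 pairs, whose median was 0.24). Their upstream sequences are shown as the neighbours whose levels moved together. Sequences are RefSeq promoters read from GRCm38.p6 and found unchanged in mm9, at chr4:136442116-136442365 for C1qb and chr4:136448981-136449079 for C1qc. Both are given on the minus strand, 5′ to 3′, and end before the annotated starts. Capitals mark AGGAAG or its reverse complement CTTCCT, a core shared by binding sites of ETS family factors, to which the macrophage regulator PU.1 belongs.
C1qb: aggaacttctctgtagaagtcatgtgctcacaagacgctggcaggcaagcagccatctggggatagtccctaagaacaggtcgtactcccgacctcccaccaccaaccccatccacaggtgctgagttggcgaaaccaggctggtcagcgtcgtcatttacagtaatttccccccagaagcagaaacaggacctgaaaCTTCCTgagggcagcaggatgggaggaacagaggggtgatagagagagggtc
C1qc: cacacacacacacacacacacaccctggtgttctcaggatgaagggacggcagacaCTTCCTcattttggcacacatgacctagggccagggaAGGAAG
The C1qb stretch of 250 bases holds 1 match, on the reverse strand, and the C1qc stretch of 99 bases holds 2, with 1 on each strand. Such a match is common: 29.5% of the 32851 RefSeq promoters hold at least 1 in the same 250 bases, and 12.0% in the same 99. Those 99 are the part of the 250 farthest upstream of each RefSeq start. How many promoters hold 2 matches was not counted. The matches describe these letters and do not show that a factor was bound.

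At P30 this pairing of C1qb and C1qc was no longer seen (rho 0.05 over 12 libraries). C1qb held 9.06, 1.66, 0, 1.74, 1.87 and 0.979 FPKM in WT and 2.27, 6.21, 2.51, 8.10, 4.01 and 2.61 FPKM in Kdm6b-cKO. C1qc held 11.8, 2.35, 1.96, 0.460, 1.13 and 0.207 FPKM in WT and 5.49, 5.55, 0, 0, 0 and 0.920 FPKM in Kdm6b-cKO. WT library 0 was the highest of all 12 for both genes. In Kdm6b-cKO libraries 2, 3 and 4, C1qc was listed at 0 although C1qb was read 6, 19 and 7 times there. These were also the 3 Kdm6b-cKO libraries with the most ribosomal 45S precursor (Rn45s above 1000 FPKM) and the shallowest of their group.

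**Figure D3:**
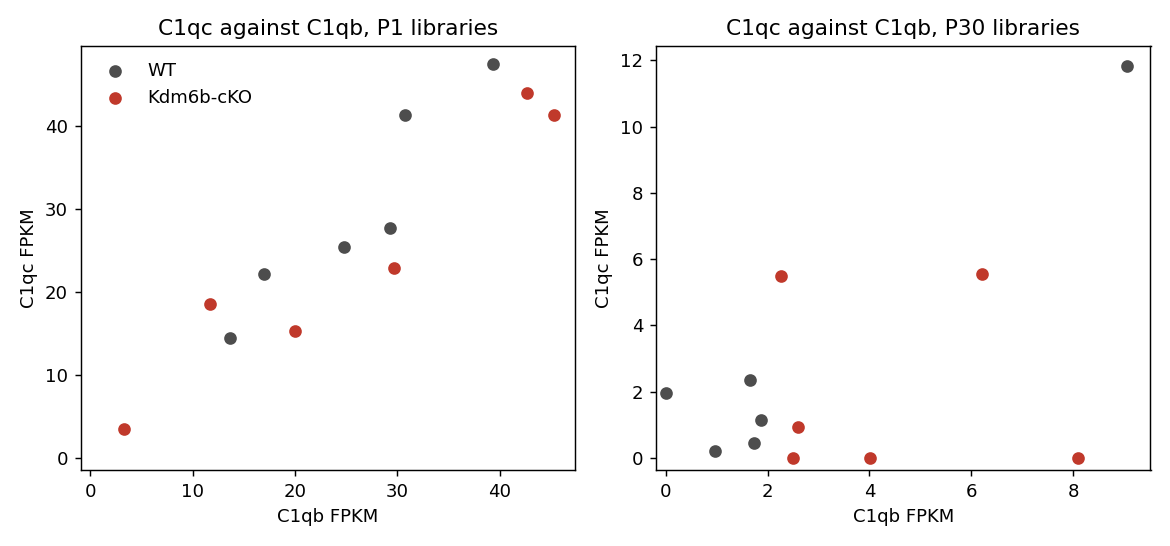
C1qc against C1qb in FPKM, one point a library, at P1 (left) and P30 (right). At P1 C1qc rises with C1qb in both genotypes, and at P30 3 Kdm6b-cKO libraries have C1qb above 0 with C1qc listed at 0.

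The genotype differences of the C1q genes at P30 went in different directions. C1qb had a log2 fold change of 1.52 (SE 0.81, exact permutation p = 0.108, adjusted p = 0.466 in limma) and C1qc one of -1.44 (SE 1.25, exact permutation p = 0.310, adjusted p = 0.680 in limma). C1qa, below the filter, spanned 0 to 1.89 FPKM in WT, against 0 to 3.82 FPKM in Kdm6b-cKO, with a log2 difference of 1.34 (exact permutation p = 0.208). With the 45S split as a term C1qc had a log2 fold change of -2.93 and an adjusted p of 0.0217 in limma, whereas with library weights it was 1.13 with an adjusted p of 0.415.

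Aif1 encodes IBA1, the actin-binding protein by which microglia are usually stained. It was the only gene of the set with higher values in Kdm6b-cKO at both ages to an unadjusted p under 0.05. At P1 it held 9.61, 7.49, 3.61, 1.06, 8.49 and 1.69 FPKM in WT and 10.8, 8.81, 9.92, 7.82, 8.74 and 28.9 FPKM in Kdm6b-cKO. The Kdm6b-cKO libraries other than number 5 were close together, at the top of a wide WT range. The log2 fold change was 1.44 (SE 0.55, exact permutation p = 0.0260, adjusted p = 0.253 in limma). WT libraries 2, 3 and 5, the lowest, were among the 5 P1 libraries with more than 100 olfactory receptor genes above 0. WT library 4 and Kdm6b-cKO library 5 were the others. Among the 7 libraries without that signal (2 WT, 5 Kdm6b-cKO) the log2 difference of Aif1 was 0.11 (exact permutation p = 0.524).

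At P30 Aif1 held 0.694, 2.51, 5.12, 6.00, 3.31 and 2.42 FPKM in WT and 6.05, 10.8, 16.3, 12.1, 15.8 and 4.24 FPKM in Kdm6b-cKO. All but 1 of the Kdm6b-cKO libraries lay above every WT library, and the exception, number 5, was under WT libraries 2 and 3. The log2 fold change was 1.78 (SE 0.48), with an exact permutation p of 0.00866 and an adjusted p of 0.144 in limma. Leaving out each library in turn gave values between 1.41 and 2.02. Split by the 45S precursor, the log2 difference was 1.98 among libraries above 1000 FPKM of Rn45s (5 WT, 3 Kdm6b-cKO, exact permutation p = 0.0179, the smallest possible there) and 3.06 among the others (1 WT, 3 Kdm6b-cKO, where no p under 0.25 is possible). With that split as a term in limma the log2 fold change was 2.29 with an adjusted p of 0.00396, so that Aif1 and C1qc, 2 of the 6 genes tested, were called, against 4.14% of all genes. With library weights 1 of the 6, Csf1r, was called (log2 fold change 2.68, adjusted p = 0.0340), against 3.99% of all genes, and Aif1 had a log2 fold change of 1.18 with an adjusted p of 0.0531.

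The level of Aif1 did not follow the other 8 genes across libraries. Spearman's rho between Aif1 and the mean log2 level of the other 8 was -0.47 at P1 and -0.01 at P30, over 12 libraries each. For Csf1r the same measure was 0.92 and 0.61, and for Cx3cr1 0.15 and 0.80. The clearest case was P30 WT library 0, which had the highest Cx3cr1, Tmem119, C1qb and C1qc of all 12 libraries and the lowest Aif1. Aif1 also led the order of levels at P30 in both genotypes, with medians of 2.91 and 11.4 FPKM, whereas at P1 C1qb did, with medians of 27.0 and 24.8 FPKM.

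By WT medians at P1 the order was C1qb, C1qc, C1qa, Trem2, Aif1, Csf1r, Tmem119, P2ry12 and Cx3cr1, from 27.0 down to 3.51 FPKM. At P30 it was Aif1, Trem2, C1qb, C1qc, P2ry12, Tmem119, C1qa, Csf1r and Cx3cr1, from a median of 2.91 FPKM down to one of 0. The ranges of every neighbouring pair in both orders overlapped.

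Transcripts of other cells outside the lineage moved with the microglial genes at P30, and those of endothelial and mural cells did so at P1 too. GABAergic interneurons come from the ventral telencephalon and are also outside the Emx1 lineage, and 16 of their genes summed to 553 and 377 FPKM in WT libraries 0 and 1, to between 47.9 and 121 FPKM in the other 4 WT libraries, and to between 222 and 398 FPKM in the Kdm6b-cKO libraries. The sum of the 8 microglial genes without Aif1 was 36.4 and 10.3 FPKM in WT libraries 0 and 1, between 3.11 and 6.32 FPKM in the other WT libraries, and between 9.04 and 25.2 FPKM in Kdm6b-cKO. Across the 12 libraries of both genotypes together both sums had a Spearman rho of 0.83, and at P1 one of -0.08. With Aif1 in the microglial sum these were 0.73 and 0.05. No rho was computed within a genotype, so the part of genotype in them was not tested. For the sum without Aif1 the rho against 16 endothelial and mural genes was 0.60 at P1 and 0.62 at P30. Only 4 of those 16 passed the filter at P30. Against the glutamatergic genes it was 0.49 at P1 and -0.58 at P30. All these points share their libraries, depth and scaling, and the part of other cell types in the genotype differences was not tested. Against WT library 0 alone, the 3 Kdm6b-cKO libraries with as little 45S precursor had log2 differences of -2.09 for Cx3cr1, -1.42 for C1qb and -1.91 for C1qc.

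**Figure D4:**
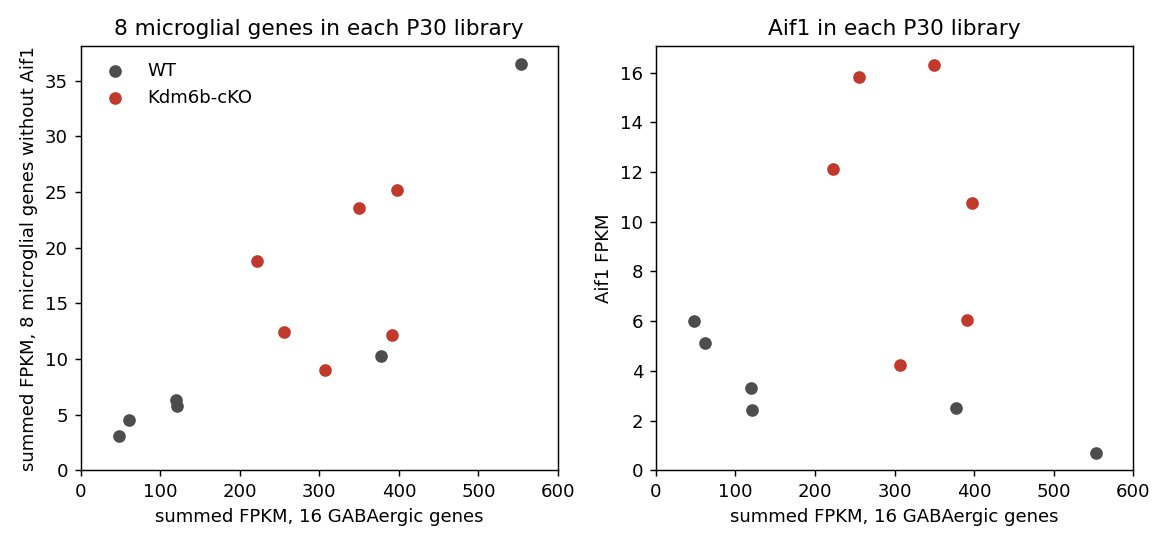
Summed FPKM of the 8 microglial genes without Aif1 (left) and FPKM of Aif1 (right) against the summed FPKM of 16 GABAergic genes, one point per P30 library. The 4 WT libraries with the lowest GABAergic sums also have the lowest microglial sums, from 3.11 to 6.32 FPKM, and Aif1 does not follow that order.

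Other genes were ranked by the likeness of their P30 pattern to the mean of the 6 microglial genes that passed the filter. This ranking is a description over both genotypes together, and the mean includes Csf1r, which passed only through Kdm6b-cKO. How high the best rho would be by chance was not tested. Out of 13283 genes, the highest rho over the 12 libraries were those of Rpn2 (0.94) and of Gad1, Gm14204 and Sox1ot (0.89 each). Gad1 makes GABA, and Rpn2 is a subunit of the oligosaccharyltransferase. Gad1 had a log2 fold change of 1.54 at P30 (SE 0.49, adjusted p = 0.218 in limma). The ranking used the same libraries, so this value is not separate from its place there. Of the 16 GABAergic genes, 12 were tested at P30 and all 12 had higher values in the knockout. Their median log2 fold change was 1.53, with 7 at an unadjusted p under 0.05 and 0 called. At P1, 15 were tested, 9 lower and 6 higher, with a median of -0.03 (-0.25 under quantile normalization) and 0 called. Among the 12 tested at P30 the largest log2 fold changes were those of the interneuron transcription factors Dlx1 (2.78) and Dlx6 (2.54) and of Gad2 (1.85).

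At P1 a different signal touched the set. In WT libraries 2 to 5 and Kdm6b-cKO library 5, many olfactory receptor genes, which cortex is not known to use, were above 0. The 95th percentile of these receptors there was 3.58, 6.22, 5.03, 2.12 and 14.4 FPKM, and 7, 3, 5, 8 and 2 of the 9 microglial genes lay above it. In the other P1 libraries the 95th percentile was 0. Cx3cr1, with 3.41 to 4.69 FPKM in those 4 WT libraries, lay above that percentile in libraries 2 and 5 and under it in libraries 3 and 4. Among the 7 libraries without it the log2 differences were -2.72 for Cx3cr1 (exact permutation p = 0.0952) and -1.47 for Csf1r (exact permutation p = 0.143), where no p under 0.0476 is possible. With the signal as a term in limma, the unadjusted p of Cx3cr1, Csf1r and Aif1 was 0.163, 0.0593 and 0.0731. That of C1qa was 0.00422, with a log2 fold change of -3.08 and an adjusted p of 0.359.

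A wider list of 30 microglial genes was read in the same way. At P1, 26 were tested, 22 with lower and 4 with higher values in Kdm6b-cKO, and 0 were called or had an unadjusted p under 0.05. Their median log2 fold change was -0.70, beside -0.25 for all genes, and under quantile normalization 18 of 25 were lower, with a median of -0.34. The largest differences were those of Tyrobp, the signalling adaptor of TREM2 (-2.55, adjusted p = 0.405), Fcrls (-2.15, adjusted p = 0.440) and the P2ry12 neighbour P2ry13 (-1.99, adjusted p = 0.379 in limma). At P30 only 9 were tested, 6 higher and 3 lower, with a median of 0.40 and 0 called. With no filter 18 of the 30 were higher and 12 lower, with a median of 0.25 beside -0.02 for all genes. Selplg (2.00, adjusted p = 0.279), the lectin Siglech (1.80, adjusted p = 0.518) and the lysosomal Cd68 (-0.82, adjusted p = 0.743 in limma) had the largest differences. Selplg and Siglech passed the filter only through Kdm6b-cKO, with means of 1.98 and 1.86 FPKM, against 0.44 and 0.48 FPKM in WT.

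Transcription factors and signalling proteins of microglia were measured by a list of 14. At P1, 7 of the 9 tested had lower values in the knockout, with a median of -1.13 beside -0.25 for all genes. Under quantile normalization 6 of 9 were lower, with a median of -0.15 beside -0.12. Irf5 (-2.73) and Ikzf1 (-1.50) were among those that differed the most, with adjusted p-values of 0.288 and 0.402 in limma. At P30, 3 of the 6 tested were lower and 3 higher, with Irf8 (-1.30) and Syk (-0.70) the furthest below 0. None of this list was called at either age.

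Ligands of the microglial receptors formed a list of their own. Of the 6 listed (Csf1, Il34, Cx3cl1, Tgfb1, Apoe and Clu), 5 were tested at each age, with 4 lower at P1 and 5 lower at P30 and 0 called. Cx3cl1, the fractalkine ligand of CX3CR1 made by neurons, held 10.7 to 27.8 FPKM in WT and 0.989 to 15.0 FPKM in Kdm6b-cKO at P1. Its log2 fold change was -1.49 (adjusted p = 0.248 in limma). Il34, the neuronal ligand of CSF1R, had log2 fold changes of -1.09 at P1 and -0.54 at P30 (adjusted p = 0.567 and 0.688 in limma), and Csf1 had -0.70 at P30.

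Beyond C1q, 14 of 15 other complement genes were listed. At P1, 9 were tested, 6 lower and 3 higher, with a median of -0.77 (-0.31 under quantile normalization), led by C3ar1 (-1.61), Serping1 (-1.44) and C5ar1 (-1.34). At P30, 5 were tested, 4 of them higher, with a median of 0.39, led by C3ar1 (1.17, adjusted p = 0.200 in limma), Cd59a (0.87) and Cfp (0.39). Genes of border macrophages and blood cells, 15 in all, had 11 tested at P1 (9 lower, median -1.12) and 1 at P30 (Cd79a, -0.65). Their P1 median was -0.27 under quantile normalization (7 of 11 lower), and -0.53 with no filter, where that of all genes was -0.47. Genes of activated microglia, 16 in all, had 10 tested at P1 (7 lower, median -0.89, or -0.73 under quantile normalization) and 6 at P30 (4 lower, median -0.12). Among those tested, the largest differences were those of Cd74 at P1 (-2.29, adjusted p = 0.367 in limma) and Cst7 at P30 (-1.49, adjusted p = 0.622 in limma). Lpl had -1.20 at P1 and 1.33 at P30, with adjusted p-values of 0.277 and 0.233 in limma. No gene of these 3 lists was called.

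Among the remaining lists of other cell types, 0 of 15 endothelial and mural genes tested were called at P1 (10 lower, median -0.43, or -0.18 under quantile normalization) and 0 of 4 at P30 (2 lower, median 0.46). Astrocyte genes, which belong to the lineage, had medians of -0.39 at P1 and -0.06 at P30 over 16 genes, and glutamatergic genes had -0.28 at both ages over 16, with 0 called. Oligodendrocyte genes had a median of -1.55 over 17 genes at P1 (-0.82 under quantile normalization) and -0.59 over 19 at P30, where Mag (-1.59), Sox10 (-1.46), Mbp (-1.27) and Cmtm5 (-1.17) were called lower. The targeted gene was counted over its whole length and did not separate the genotypes: Kdm6b spanned 24.9 to 51.0 FPKM in WT, against 15.0 to 38.4 FPKM in Kdm6b-cKO at P1 (exact permutation p = 0.190), and from 16.9 to 26.4 and 17.5 to 28.1 FPKM at P30 (exact permutation p = 0.446). Reads on the floxed exons were not analysed here, so this value does not check the labels.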

How the data were processed

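RNA of sorted GFP-positive cortical nuclei was sequenced in 24 libraries. Per the labels and methods, HISAT2 was the aligner (mm9) and Cuffdiff made the expression values. The deposited tables hold FPKM per gene and library, one table per age, each normalized separately, with columns numbered 0 to 5 in each group. The authors' tables of fold changes and p-values were not used. Members and gene lists were chosen with earlier results of these data known. All 9 members were named, and from each other list up to 3 tested genes of largest fold change, with the 5 genes most like the members at P30. Some genes that this rule takes are not reported here.

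For each age, limma 3.58.1 (R 4.3.3, lmFit, eBayes with trend, two-sided) was fitted to log2(FPKM + 0.1) of genes averaging 1 FPKM or more, with Benjamini-Hochberg adjustment over all of them. Fold changes on this scale understate changes of low genes, except where some libraries of a group are listed at 0, when they can overstate them. Single genes were compared by exact two-sided permutation over 924 splits. The fits were tried on simulated data. Whole reads were read from FPKM steps, and depth from genes with a single transcript in GENCODE M1. A limit of 3 reads was taken for a value of 0, for counting error only. Python 3.11.15, pandas 2.3.3, numpy 2.4.6, matplotlib 3.10.9 and scipy 1.17.1 served for the rest. Alternatives covered the pseudocount (0.01 or 1), the filter (none, or 5 FPKM), scaling (median-of-ratios, quantile), the trend, robust empirical Bayes, library weights, the technical splits as terms, ratios of arithmetic means, and single libraries left out. Leaving out 2 libraries at once and the cut at 1000000 effective reads were chosen after seeing the data.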

Additional observations from a re-analysis of the deposited data

Results flagged for a closer look

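Of 36 combinations of gene, age and genotype, 8 had a library far from the other 5 by Dixon's criterion, in each case the highest. Independent normal values would meet it in about 5% of groups. These are FPKM on their raw scale and the groups share libraries, so 8 of 36 is not shown to be more than chance. Of these, 4 were the same P30 library, WT 0, with 1.61 FPKM of Cx3cr1 (next highest 0.513), 1.89 of C1qa (0.548), 9.06 of C1qb (1.87) and 11.8 of C1qc (2.35). The others were spread over libraries. At P1, Csf1r in WT library 0 was 7.74 FPKM (next 5.36), C1qa in Kdm6b-cKO library 4 was 23.1 FPKM (next 6.86) and Aif1 in Kdm6b-cKO library 5, the shallowest, was 28.9 FPKM (next 10.8). At P30, Trem2 in Kdm6b-cKO library 2 was 15.3 FPKM (next 5.19).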

How the results depend on the processing

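No paired analysis was possible because the columns of the expression tables carry none of the replicate numbers of the labels. Member calls stayed at 0 at P1 and for the age difference under every alternative run, and at P30 under all but 2: library weights called 1 gene (Csf1r) and the 45S split as a term called 2 (Aif1 and C1qc). The cause was not tested. Omitting any 1 library, 0 were called throughout. Signs at P1 turned with library weights for C1qb (0.45) and C1qc (0.17), without the shallow Kdm6b-cKO libraries 0 and 5 for C1qb (0.43), C1qc (0.031) and Trem2 (-0.32), and with a term for the receptor signal for Trem2 (-0.16). At P30, C1qc turned with library weights (1.13), and Tmem119 with a pseudocount of 0.01 (-0.056). For the age difference, C1qc turned with a pseudocount of 1 (0.093) and with library weights (1.04), as did Aif1 (-0.061) and Trem2 (-0.014) with library weights. Leaving out single libraries gave C1qb -0.62 to 0.13 at P1, Trem2 -0.33 to 0.30 at P1, P2ry12 -0.67 to 0.22 at P30, Tmem119 -0.031 to 0.82 at P30, and Aif1 -0.038 to 0.70 for the age difference. In these fits Csf1r, Cx3cr1, C1qa and Aif1 kept their sign at each age, but within the sides of the 2 library splits not all did. Among the P1 libraries with the receptor signal (4 WT, 1 Kdm6b-cKO) Cx3cr1 (0.58), P2ry12 (1.34) and Tmem119 (0.52) turned, and among those without it Trem2 (-0.48) did. Among the P30 libraries under 1000 FPKM of Rn45s (1 WT, 3 Kdm6b-cKO) Cx3cr1 (-2.09), Tmem119 (-1.67), Csf1r (-1.19) and C1qb (-1.42) turned, as did Trem2. Log2 ratios of arithmetic means at P30 were 0.34 for Cx3cr1, 0.75 for C1qb and -0.59 for C1qc. Values of a few reads a library limit what could be seen: C1qa at P30 rested on 20 reads in WT and 45 in Kdm6b-cKO.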
